A study of Mus musculus with 4 samples.

Results

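Whether macrophages that lack Trim24 answer IL-4 like wild-type (WT) macrophages was examined gene by gene, as a difference of responses. For each gene the response in 1 genotype was log2(IL-4 / untreated), and the WT response was subtracted from the response of the Trim24-deficient cells. A positive difference therefore means a stronger induction, a weaker repression, or a rise in place of a fall, without Trim24. The measure was taken for genes with a length of at least 200 bases and at least 50 reads in every library, which kept 9229 of the 16403 genes listed. The gene with the fewest reads inside the limit was Trim68, with 50 reads in its lowest library and a difference of -0.05, and the nearest outside was Sirpb1c, with 49.93 reads and a difference of 0.11.

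Groups of C57BL/6 peritoneal macrophages were sequenced, with 1 library in each: WT untreated, WT with IL-4, Trim24-deficient untreated, and Trim24-deficient with IL-4. The cells were elicited with 4% thioglycolate over 4 days, left to adhere for 4 h and, in the treated groups, given 20 ng/mL IL-4 for 6 h in medium with 0.5% serum. The deficient mice, labelled TIF1a-KO, carried floxed Trim24 alleles and Cre driven by the lysozyme M promoter, so deletion was limited to myeloid cells, and the WT mice were their littermates. The number of mice behind each library is not given in the sources used here. With 1 library in each group no difference could be tested against the spread between mice, and no p-value is given. A difference was called where it passed 1.5-fold (0.585 on the log2 scale), and a 95% counting interval was set beside it, which covers counting error only.

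IL-4 binds a receptor built on IL-4Rα, whose Janus kinases phosphorylate the transcription factor STAT6. In macrophages STAT6 drives the alternatively activated, or M2, programme, which includes arginase 1, the mannose receptor Mrc1 and the chitinase-like protein Chil3 (Ym1). Trim24, also called TIF1α, is a nuclear protein with a RING domain, a PHD finger and a bromodomain, known as an E3 ubiquitin ligase and as a cofactor of retinoic acid receptors.

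The libraries held between 11026033 and 11250099 reads assigned to genes. Trim24 itself (chr6:37870811-37968445, GRCm38) had 175 and 103 reads in the untreated and IL-4 WT libraries and 4 and 10 reads in the deficient ones, which followed the labels and left Trim24 outside the read limit. The macrophage markers Adgre1 and Csf1r, the receptor for colony stimulating factor 1, were abundant in every library, at 224 to 319 and 529 to 1113 reads per 1000000 assigned (CPM), and B, T and NK, eosinophil, mast and dendritic cell markers had no gene past the read limit. The 15 macrophage markers summed to 17993 and 18472 CPM in WT and 12038 and 11943 in the deficient cells, and to 5795, 6773, 5989 and 6379 CPM without Lyz1 and Lyz2. Lyz2, the lysozyme M gene, had 11731, 11241, 5395 and 4945 CPM. Neutrophil markers had 2 of 7 genes past the limit, Csf3r and Cxcr2, and summed to 177, 307, 172 and 311 CPM. The 2 genotypes differed in how the IL-4 response ran with gene length. From the shortest eighth of genes (328 to 1312 bases) to the longest (5644 to 83437 bases), the median WT response ran from 0.18 to -0.38, and that of the deficient cells from 0.04 to -0.11. This trend was subtracted in each genotype, so the responses given are length-adjusted and can depart from the ratio of the CPM values beside them. Whether the trend came from RNA quality, library preparation or the cells was not tested.

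**Figure D1:**
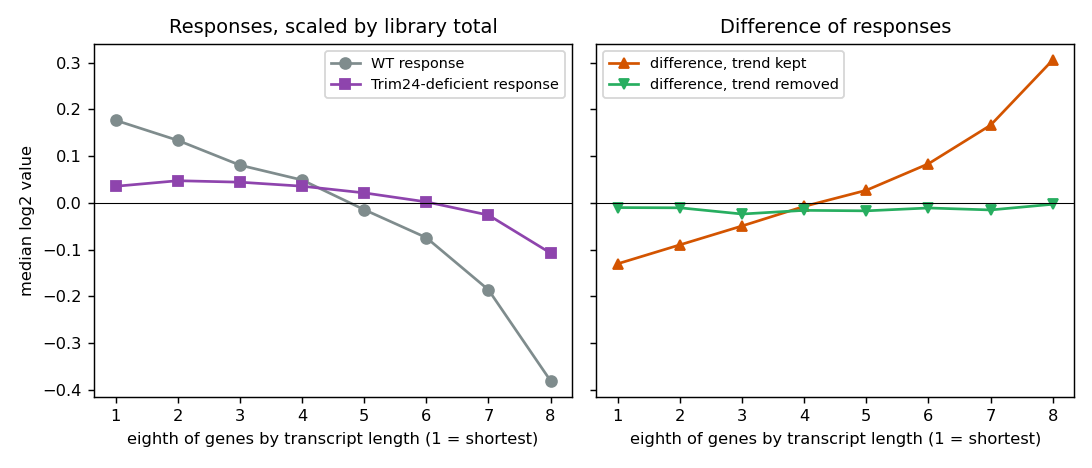
Median IL-4 response (log2) of the 9229 genes in 8 equal groups by gene length, for each genotype before the length trend was subtracted. The difference of the responses is drawn both before and after the trend over log2 length was subtracted. Before subtraction the WT medians run from 0.18 to -0.38 and those of the Trim24-deficient cells from 0.04 to -0.11, and afterwards the median difference stays between -0.02 and 0.00 in each group.

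Most genes had nearly the same IL-4 response in the 2 genotypes. The difference had a median of -0.014 and lay between -0.34 and 0.37 for the middle 90% of genes. It passed 1.5-fold for 194 of 9229 genes (2.1%), of which 115 (1.25%) were higher and 79 (0.856%) lower without Trim24, and the counting interval stayed clear of 0 for 107 (1.16%) and 69 (0.748%) of these. With the length trend left in, the calls were 287 higher and 83 lower, so the balance of higher over lower calls depends on that step. IL-4 raised 514 genes (5.57%) and lowered 567 (6.14%) past 1.5-fold in WT, and raised 484 (5.24%) and lowered 460 (4.98%) without Trim24. Neither genotype's own response passed 1.5-fold for 48 of the 115 genes called higher and 41 of the 79 called lower. IL-4 raised 367 genes and lowered 328 by more than 1.5-fold in both genotypes, and moved 0 genes past 1.5-fold in opposite directions. By sign alone, at any size, the responses of the 2 genotypes were opposite for 137 of the 194 called genes.

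**Figure D2:**
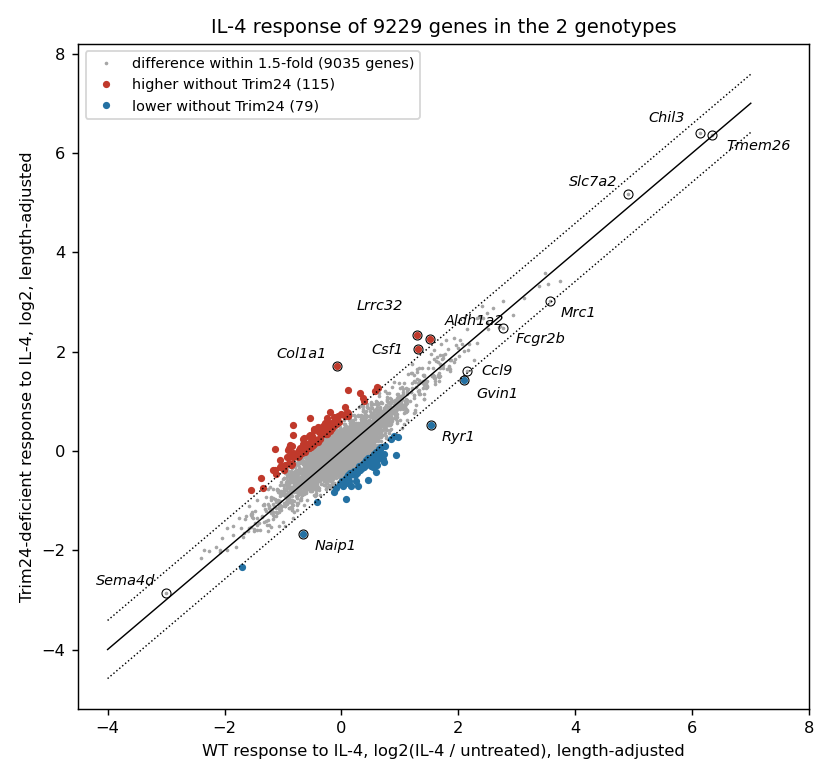
IL-4 response (log2, length-adjusted) of each of the 9229 genes in WT macrophages (x axis) and in Trim24-deficient macrophages (y axis), 1 library per group. The solid line marks equal responses and the dotted lines a 1.5-fold difference, which 115 genes pass upward and 79 downward, while the strongly induced Chil3, Tmem26 and Slc7a2 lie between the dotted lines.

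The calls were concentrated among genes with few reads. Of the 795 genes with a mean under 100 reads, 9.308% were called, against 1.169% of the 2823 genes with 200 to 500 reads and 0 of the 561 genes with 3000 or more. The median counting error of the difference fell along the same scale, from 0.325 to 0.041. The spread of the differences exceeded that error in the deep genes, with an SD of 0.127 at 3000 or more reads. The difference is the ratio between the genotypes with IL-4 minus the ratio without it, so a called gene tends to have an untreated ratio that opposes the call. Of the 115 called higher, 96 had a lower level in the untreated deficient library than in the untreated WT library, with a median ratio of -0.30 on the log2 scale, and of the 79 called lower, 77 had a higher one, with a median of 0.33. With IL-4 the ratio went with the call in 106 of 115 and 76 of 79, with medians of 0.42 and -0.36, and the untreated part was the larger in 48 and 36. The untreated libraries enter the difference directly, so an untreated library that stands apart for a gene moves its difference as much as one with IL-4 does.

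**Figure D3:**
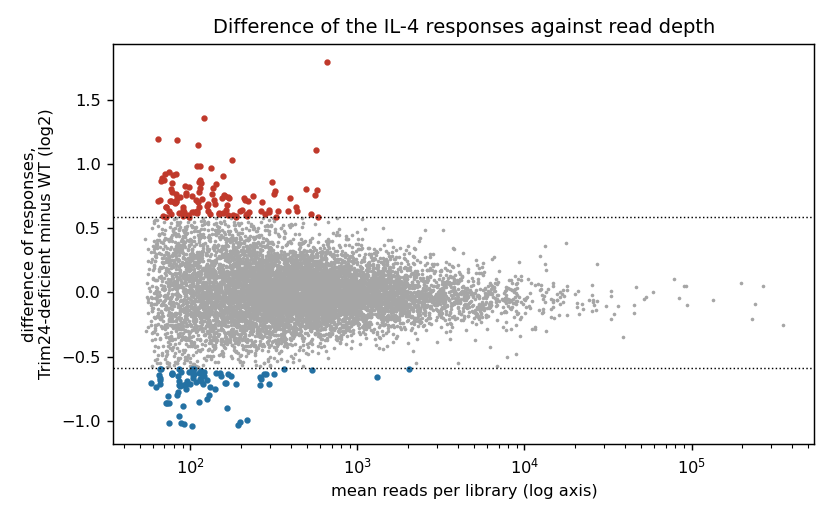
Difference of the IL-4 responses (Trim24-deficient minus WT, log2) of the 9229 genes against their mean reads over the 4 libraries (log axis). The points narrow from an SD of 0.354 under 100 reads to 0.127 at 3000 or more reads, where no gene passes 1.5-fold.

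Genes with a strong IL-4 response had nearly the same median response in the 2 genotypes. Over the 174 genes induced at least 2-fold on average over the genotypes, the median response was 1.45 in WT and 1.51 in the deficient cells, and the median difference was 0.02, against -0.014 over all 9229 genes. Of these, 3 had a larger induction past 1.5-fold without Trim24, 2 had a smaller one, and 169 stayed within it. Over the 114 genes repressed at least 2-fold, the median response was -1.25 in both genotypes and the median difference 0.02. With the length trend left in, the median over the same 114 genes was 0.09. Selecting repressed genes anew with the trend left in gave 138 under library totals. Their median difference was 0.21, towards weaker repression without Trim24, and 14 of them passed 1.5-fold. Among the 114 genes of the main measure 2 were more strongly and 2 less strongly repressed past 1.5-fold, and 110 stayed within it. The 5 and 4 called genes are 2.87% and 3.51% of the 2 classes, beside 2.1% of all genes.

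The 3 larger inductions were those of Lrrc32, Csf1 and Aldh1a2. Lrrc32 (chr7:98489305-98501831, GRCm38) encodes GARP, a membrane protein that holds latent TGF-β on the cell surface. It stood at 7.52 CPM in untreated WT, 17.6 CPM in WT with IL-4, 6.35 CPM in untreated deficient and 32.5 CPM in IL-4-treated deficient macrophages. Its response was 1.3 in WT and 2.33 without Trim24, a difference of 1.03 (95% counting interval 0.51 to 1.55), which came mainly from the high IL-4-treated deficient library. Csf1, the growth factor that maintains macrophages, had 13.7, 31.4, 7.80 and 32.7 CPM in the same order. Its difference of 0.75 (0.31 to 1.19) rested on the low untreated deficient library, since the IL-4-treated libraries differed by only -0.06 on the length-adjusted log2 scale. Aldh1a2, which makes retinoic acid from retinal, had 8.88, 26.7, 6.62 and 32.7 CPM and a difference of 0.73 (0.24 to 1.22). For Aldh1a2 the untreated ratio of -0.41 and the IL-4 ratio of 0.33 both added to it.

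Several well-read induced genes followed in the same direction below the 1.5-fold mark. Tgm2, a transglutaminase induced by retinoic acid and by IL-4, had 151, 273, 133 and 355 CPM, with responses of 0.90 and 1.39 and a difference of 0.49 (0.36 to 0.61). Zfp609 had 35.6, 59.9, 35.0 and 110 CPM, so that the untreated libraries were level and the IL-4-treated deficient library was high. Its difference was 0.55 (0.30 to 0.79), or 0.89 with the length trend left in. Tmem267 had a difference of 0.53 (0.04 to 1.01).

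The 2 smaller inductions were those of Ryr1 and Gvin1. Ryr1, a calcium release channel of the endoplasmic reticulum, had 10.7, 18.7, 18.8 and 23 CPM. The untreated deficient library already equalled the WT library with IL-4, and the responses were 1.53 and 0.52, a difference of -1.01 (-1.43 to -0.59). Gvin1, a very large interferon-inducible GTPase with near-identical copies whose reads may be shared, had 51.8, 160, 74.1 and 186 CPM and a difference of -0.66 (-0.84 to -0.48). Both genes are long and depend on the length adjustment, since without it the differences were -0.51 and -0.30, inside 1.5-fold.

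Among repressed genes, Naip1 and Lrrc14b had the deeper repression without Trim24. Naip1, an inflammasome sensor with close paralogs, had 8.52, 4.58, 15.4 and 4.71 CPM, so only the untreated deficient library stood apart, and its difference was -1.03 (-1.69 to -0.36). Lrrc14b had 41.4, 13, 50.5 and 10.3 CPM and a difference of -0.64 (-1.03 to -0.24). Gpr132 and Nbeal2 had the weaker repression. Gpr132, an acid- and lipid-sensing receptor, had 21.7, 7.64, 17.4 and 10.3 CPM and a difference of 0.76 (0.27 to 1.25). Nbeal2 had 41.1, 11.7, 41.8 and 23 CPM, so the untreated libraries were level, and a difference of 0.59 (0.23 to 0.95), just past the 1.5-fold mark, or 0.94 with the length trend left in. Below the 1.5-fold mark, Xylt1, which starts proteoglycan chains, had 38.6, 12.9, 44.1 and 20.9 CPM and a weaker repression by 0.47 (0.11 to 0.82), and Sntb2 one by 0.46 (0.01 to 0.91).

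The M2 genes had 22 of their 49 listed members past the read limit, and 0 of the 22 were called in either direction. Their median difference was -0.11, with 8 of 22 above 0, beside 47.2% of all genes. The median response was 1.34 in WT and 1.38 in the deficient cells, and IL-4 induced 19 of the 22 past 1.5-fold in WT and 17 without Trim24. The list was chosen with earlier results of these data known, so its counts are a description.

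Mrc1 (chr2:14229414-14332023, GRCm38), the mannose receptor, was the M2 gene past the read limit with the most negative difference. It had 61.5, 619, 85.3 and 680 CPM, with responses of 3.57 and 3.02 and a difference of -0.55 (-0.70 to -0.40), or -0.34 with the length trend left in. The IL-4-treated libraries were near each other, at a ratio of -0.09, and the untreated deficient library was the higher untreated one, at 0.45. Clec7a, the β-glucan receptor Dectin-1, had 494, 1251, 558 and 1098 CPM and a difference of -0.34 (-0.40 to -0.28). Chil3 had 11, 850, 17 and 1503 CPM, and its difference of 0.27 (-0.06 to 0.61) was not detectable at this depth. Slc7a2, the arginine transporter CAT2, was like it, with 11.9, 270, 18 and 618 CPM and a difference of 0.28 (-0.05 to 0.60). Tmem26 was induced as strongly as Chil3, with responses of 6.34 and 6.36 against 6.13 and 6.4. Tgm2, given above, was the M2 gene past the read limit with the most positive difference, at 0.49. The transcription factors of the programme stayed close, with a difference of -0.18 for Egr2, -0.04 for Pparg and -0.06 for Stat6.

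**Figure D4:**
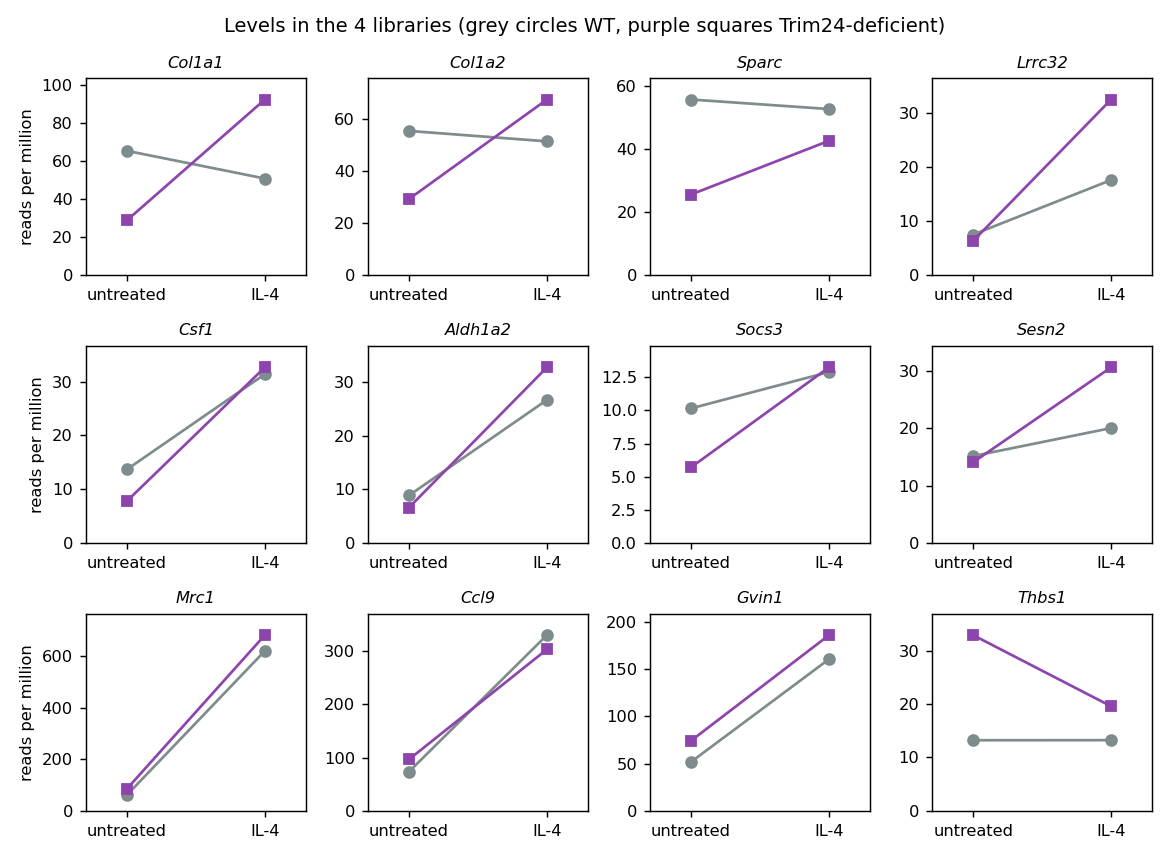
Level (CPM, linear axes from 0) of 12 genes in each of the 4 libraries, with lines joining the untreated and IL-4-treated library of a genotype. Lrrc32 climbs more steeply in the Trim24-deficient cells (6.35 to 32.5 CPM) than in WT (7.52 to 17.6 CPM), and Col1a1 climbs from 28.9 to 92.5 CPM in the deficient cells while it goes from 65.5 to 50.9 CPM in WT.

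Many strongly induced genes were too low before IL-4 to enter the main measure. Selected were genes with at least 50 reads in both IL-4-treated libraries and fewer in an untreated one. Those induced at least 2-fold on average over the genotypes numbered 91. Their median counting error was 0.51, and the interval of the difference was clear of 0 for 10 of them. Higher were Rpl37rt, Ahr, Dusp4, Chac1, Tnk2, Ust and Timp3, and lower were Arg1, Ms4a4a and Serpina3n. In CPM, Timp3 fell with IL-4 in WT and rose only in the deficient cells, so it entered through its average response. Arg1 (chr10:24915207-24927470, GRCm38), which converts arginine to ornithine, had 2.72, 685, 7.98 and 1084 CPM. Both deficient libraries were above their WT counterparts, by 1.57 untreated and 0.78 with IL-4, so the fold induction was smaller without Trim24, by -0.79 (-1.39 to -0.20), while the level reached was higher. Ms4a4a, a membrane protein of alternatively activated macrophages, had 1.48, 47.2, 1.62 and 23.7 CPM, a difference of -1.0 (-1.98 to -0.02) carried by the IL-4-treated libraries. Serpina3n, one of a cluster of similar genes, had a difference of -1.44 (-2.45 to -0.44). Retnla (Fizz1) had 0.906, 17, 2.18 and 22.7 CPM, and its difference of -0.67 (-1.75 to 0.41) was not detectable at this depth. The same held for Pdcd1lg2, the PD-1 ligand PD-L2, at 0.43 (-0.67 to 1.53), and for Irf4 at -0.15 (-0.83 to 0.53). Ccl24 had 3, 72, 6 and 62 reads and Ccl17 had 0, 10, 0 and 6, too few to compare. Cish, a feedback inhibitor of STAT signalling, had 0, 662, 5 and 712 reads, so its IL-4-treated libraries were close and no fold against 0 is given. On the repressed side, 50 genes had at least 50 reads in both untreated libraries, fewer in an IL-4-treated one, and an average repression of at least 2-fold. Their median difference was 0.13, and the interval was clear of 0 for 3, Nlrc3 at 0.94 (0.20 to 1.69), Ston2 at 1.21 (0.26 to 2.17) and Cep78 at 0.69 (0.02 to 1.36), each less repressed without Trim24.

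Of the receptor and STAT6 pathway, 29 of 33 listed genes passed the read limit, and 4 were called higher and 0 lower (13.8%, beside 2.1% of all genes), with a median difference of 0.00 (0.09 with the length trend left in). Those 4 were feedback and adaptor genes, a kinase and a coactivator. Socs3, a feedback inhibitor of Janus kinase signalling, had 10.2, 12.9, 5.71 and 13.2 CPM. Only its untreated deficient library was low, and the difference was 0.85 (0.30 to 1.40). Irs2, the adaptor that links the IL-4 receptor to phosphoinositide 3-kinase, had 13.8, 5.69, 12 and 9.16 CPM and a difference of 0.78 (0.22 to 1.34). Jak3, the kinase bound to the common γ chain, had 13.7, 10.3, 11.2 and 14.8 CPM and a difference of 0.72 (0.24 to 1.21). All 3 had fewer than 200 reads in each library, where calls are most frequent. Ncoa1, a coactivator that binds STAT6 and nuclear receptors, had 45.5, 21, 47.7 and 42.2 CPM, so the WT library with IL-4 was the one that stood low, and a difference of 0.63 (0.35 to 0.92). The receptor chain Il4ra had 50.6, 64.0, 49.2 and 62.4 CPM and a difference of -0.20 (-0.42 to 0.03). Crebbp, the acetyltransferase CBP, had 50.8, 27.7, 51.5 and 41.7 CPM and a difference of 0.26 (-0.01 to 0.53), which was 0.57 with the length trend left in.

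Because Trim24 is a retinoid receptor cofactor, its family and the retinoid genes were taken as a list. It had 17 of 26 genes past the read limit, 2 called higher (Aldh1a2 and Ncoa1) and 0 lower, with a median difference of 0.09 and 12 of 17 above 0. This is 11.8% called, beside 2.1% of all genes, and 47.2% of all genes were above 0. The median was 0.29 with the length trend left in. The most negative member was Cbx1, a heterochromatin protein, with 20.9, 29.9, 25.3 and 22.9 CPM and a difference of -0.55 (-0.90 to -0.21). The receptor Rxra had 143, 140, 125 and 171 CPM and a difference of 0.28 (0.14 to 0.42). Rara, the receptor for all-trans retinoic acid, had a difference of 0.19 (-0.21 to 0.59). The paralogs Trim33 and Trim28 differed by 0.09 and 0.05, with intervals that include 0. Among 45 of 49 acetyltransferases, deacetylases and bromodomain genes, 1 was called higher, Ncoa1, and 1 lower, the deacetylase Hdac8 at -0.62 (-1.23 to -0.01). Together they are 4.44%, beside 2.1% of all genes. Outside these lists, the histone demethylase Kdm6b had 7.97, 9.60, 8.43 and 19.9 CPM, a difference of 0.69 (0.15 to 1.22). The methyltransferase Ezh2, which writes the mark that Kdm6b removes, had a difference of 0.70 (0.06 to 1.34). Kdm6b and Ezh2 were chosen after their values were seen.

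ATF4 is the transcription factor of the amino acid stress response. A list that joined its targets with amino acid transport genes had 41 of 49 members past the limit. Of these 2 were called higher and 0 lower (4.88%, beside 2.1% of all genes), with a median difference of 0.02. IL-4 induced 22 of the 41 past 1.5-fold in WT and 19 without Trim24. The serine synthesis enzymes and asparagine synthetase lay on the higher side. Phgdh had 38.6, 135, 23.7 and 109 CPM and a difference of 0.44 (0.19 to 0.69). Asns had 24.5, 57.4, 16.2 and 49.3 CPM and a difference of 0.41 (0.10 to 0.73), Psat1 a difference of 0.37 (0.07 to 0.68). For Phgdh and Asns both deficient libraries were below WT, and the untreated gap was the wider. The 2 called genes were Sesn2, an inhibitor of mTORC1, at 0.71 (0.31 to 1.11), and the transporter Slc38a6 at 0.63. Slc7a11, the cystine transporter, went the other way, with 532, 782, 511 and 652 CPM and a difference of -0.57 (-0.64 to -0.50), but of -0.20 with the length trend left in.

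Of the 54 lists, the one with the largest share of called members was that of fibroblast and mesothelial markers, which are not macrophage genes. Of its 27 genes 11 passed the read limit, 7 were called higher and 0 lower (63.6%, beside 2.1% of all genes), and the median difference was 0.64. Col1a1 (chr11:94936224-94953042, GRCm38), the α1 chain of type I collagen, had 65.5, 50.9, 28.9 and 92.5 CPM, the largest difference of all 9229 genes at 1.79 (1.55 to 2.03). The untreated deficient library was the lowest and the IL-4-treated deficient library the highest. Col1a2, the partner chain, had 55.3, 51.3, 29.2 and 67.3 CPM and a difference of 1.11 (0.86 to 1.36). The list members Sparc, Bgn, Col3a1, Col6a1 and Col6a2 had differences of 0.81, 0.74, 0.70, 0.63 and 0.64. Of matrix genes that are not on the list, the collagen crosslinking enzyme Lox had 14.3, 7.11, 9.16 and 13.1 CPM and a difference of 1.35 (0.82 to 1.89). Lox, Hspg2 at 0.88 and Emilin1 at 0.86 were also among the 10 highest differences of genes with a mean of at least 10 CPM and an interval clear of 0. Below the read limit, Postn had 1.18, 2.67, 1.54 and 16.1 CPM and Timp3, an inhibitor of metalloproteinases, had 6.93, 4.69, 2.49 and 15.7 CPM, with differences of 2.16 (1.0 to 3.33) and 3.02 (2.26 to 3.79).

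Not every stromal gene moved in this way. Fstl1 had 106, 75.2, 247 and 183 CPM and a difference of -0.02, and the mesothelial transcription factor Wt1, below the read limit, had 68, 65, 31 and 23 reads and a difference of -0.37. Fn1, fibronectin, which macrophages also make, had 454, 1700, 376 and 2271 CPM and a difference of 0.36 (0.30 to 0.43). The summed level of the marker list without Fn1 was 509, 460, 445 and 595 CPM, so it went with IL-4 by a factor of 0.904 in WT and 1.34 without Trim24. In bulk libraries fewer cells of a type and less RNA per cell cannot be told apart, and the part of contaminating stromal cells in these differences was not tested. Without the marker list, 108 genes were called higher and 79 lower.

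**Figure D5:**
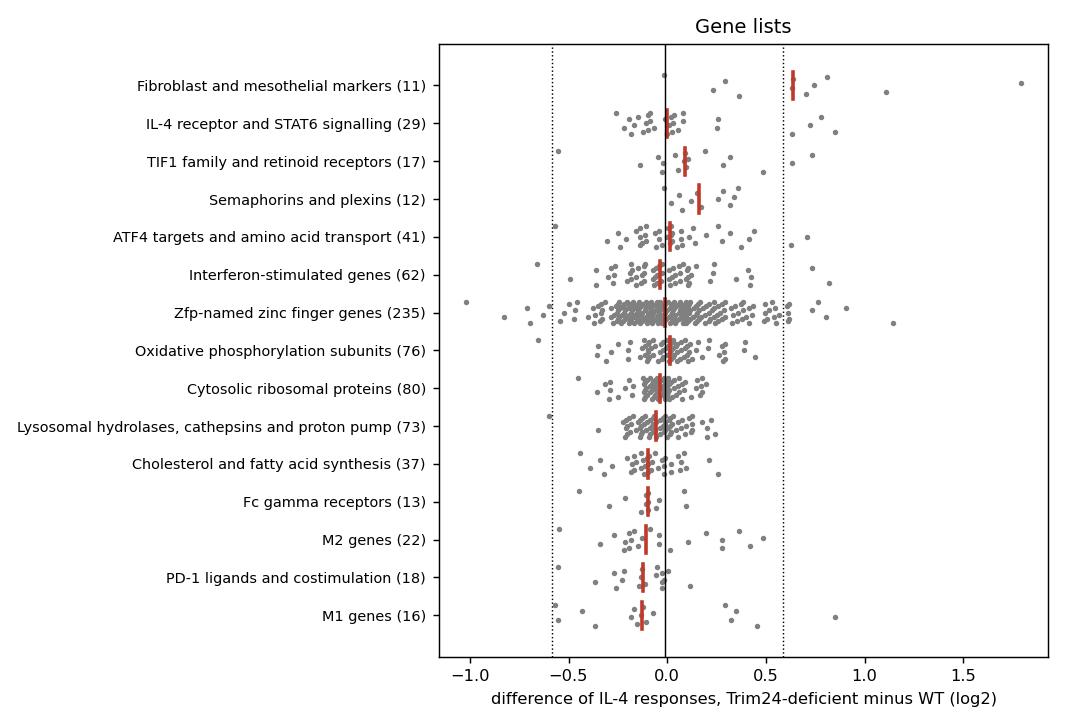
Difference of the IL-4 responses (Trim24-deficient minus WT, log2) of the measured genes in each gene list, 1 point per gene with the list's median as a bar. The medians lie between -0.13 and 0.16 except for the fibroblast and mesothelial markers, at 0.64, with dotted lines at 1.5-fold and the solid line at the median of all genes.

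Apart from the matrix genes and Lrrc32, these 10 held Clvs1 (16.2, 8.36, 11.2 and 12 CPM) at 0.97, Zfp87 at 0.90, Ankrd28 at 0.86 and Bcl2a1a at 0.98, the last a survival gene with near-identical copies. In Clvs1, Zfp87 and Ankrd28 the untreated WT library was the highest of the 4. On the lower side Thbs1, the matrix glycoprotein thrombospondin 1, had 13.2, 13.2, 32.9 and 19.6 CPM and a difference of -0.99 (-1.40 to -0.58), set by the high untreated deficient library. Dynlt1b at -1.03, a dynein light chain with near-identical copies, Aptx at -0.90, a DNA repair enzyme, Aasdhppt at -0.85, Mob3b at -0.80 and Zfp111 at -0.83 followed, with Ryr1 given above. The other three of the 10 lowest were Rbm4 at -0.75, Ttc12 at -0.73 and Fam160a2 at -0.72, the last at -0.31 with the length trend left in. In Aptx and Aasdhppt the WT library with IL-4 and the untreated deficient library were the high pair.

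Of 62 interferon-stimulated genes 2 were higher and 1 was lower, which is 4.84% beside 2.1% of all genes, with a median difference of -0.04. The higher ones were Usp18, a deubiquitinase that restrains interferon signalling, with 9.70, 8.44, 6.98 and 10.3 CPM and a difference of 0.82 (0.24 to 1.39), and Nlrc5, the transactivator of MHC class I genes, at 0.73 (0.28 to 1.19). The lower one was Gvin1. Of 16 M1 genes 1 was called (6.25%), Socs3, and of 30 genes for NF-κB subunits and feedback inhibitors 0 were. Among 6 chemokines 0 were called, although Ccl9, with 73.5, 329, 96.5 and 303 CPM, had a difference of -0.55 (-0.69 to -0.40) and Ccl6, with 206, 608, 318 and 683 CPM, one of -0.37. In both of these the untreated deficient library was above untreated WT. Ccl5 had the most positive difference of the 6, at 0.46, and 3 of the 6 were above 0. Among 35 pattern receptors the only call (2.86%) was Tlr1, at -0.60, with 22.8, 25.9, 46.8 and 35.5 CPM.

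Metabolic and housekeeping classes had few calls, beside 2.1% of all genes. Classes of this size would hold few calls at that share, and calls also became rarer with read depth. Of 80 cytosolic and 78 mitochondrial ribosomal protein genes 0 were called, of 76 oxidative phosphorylation subunits 1 (Ndufa11 at -0.65), of 49 genes of the TCA cycle and fatty acid oxidation 0, and of 37 genes of cholesterol and fatty acid synthesis 0, with a median difference of -0.10 for the last. Of 73 lysosomal genes 1 was called, Ctsc, the peptidase cathepsin C. It had 167, 231, 155 and 175 CPM and a difference of -0.60 (-0.73 to -0.47), or -0.30 with the length trend left in. The 13 Fc γ receptor and 18 PD-1 ligand and costimulation genes had 0 calls and medians of -0.10 and -0.12. Fcgr2b, the inhibitory Fc receptor, which IL-4 induces, had 159, 1199, 212 and 1224 CPM and a difference of -0.29. Semaphorins and plexins, guidance receptors and their ligands, had 0 calls among 12 and a median of 0.16, with 11 of 12 above 0. They are long genes, and their median was 0.39 with the length trend left in. Plxna1, at 1387, 631, 1427 and 1015 CPM, had a weaker repression without Trim24 by 0.28 (0.23 to 0.34). Of 235 zinc finger genes named Zfp 10 were higher and 6 lower, which is 6.81% beside 2.1% of all genes. The interval was clear of 0 for 8 and 5 of these, and the list's median difference was -0.01. Whether this share went with low read counts was not tested. By gene type, 3 of 100 long noncoding RNAs were called higher and 4 lower (7.0%), against 2.03% of 9074 protein-coding genes. Noncoding RNAs were called at low counts, as with Snhg20 at 5.98, 8.0, 7.34 and 4.90 CPM and -0.86 (-1.54 to -0.19).

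Promoters were searched to see what the called genes share. RefSeq windows of GRCm38.p6, from 250 bases before to 50 after each gene's start, were at hand for 7510 of the 9229 genes. The STAT6-type motif was TTCNNNNGAA, the other STAT (GAS) motif TTCNNNGAA, the interferon-type motif GAAANNGAAA, the AP-1-type TGANTCA, the NF-κB-type GGGANNNNCC, the sterol-type TCACNCCAC, and the ATF4-type TGATGNAA, each on either strand. The ATF4-type motif was added after values were seen. Below are 4 windows on the strand of the gene, 5′ to 3′, with the motif in capitals. The first holds the STAT6-type motif in a gene with a smaller response without Trim24, the next the same motif in a gene with a larger one, and the last pair the GAS and ATF4-type motifs in genes with larger responses. Of these genes only Socs3 was called, and the differences of Clec7a, Tmem267 and Asns stayed inside 1.5-fold.
Clec7a promoter, chr6:129472730-129473029, minus strand: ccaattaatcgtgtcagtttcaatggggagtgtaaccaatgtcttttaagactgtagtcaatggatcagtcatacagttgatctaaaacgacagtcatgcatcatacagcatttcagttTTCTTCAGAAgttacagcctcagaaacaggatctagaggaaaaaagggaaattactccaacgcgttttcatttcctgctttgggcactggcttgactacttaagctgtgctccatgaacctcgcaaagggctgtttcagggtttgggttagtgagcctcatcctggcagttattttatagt
Tmem267 promoter, chr13:119487836-119488135, plus strand: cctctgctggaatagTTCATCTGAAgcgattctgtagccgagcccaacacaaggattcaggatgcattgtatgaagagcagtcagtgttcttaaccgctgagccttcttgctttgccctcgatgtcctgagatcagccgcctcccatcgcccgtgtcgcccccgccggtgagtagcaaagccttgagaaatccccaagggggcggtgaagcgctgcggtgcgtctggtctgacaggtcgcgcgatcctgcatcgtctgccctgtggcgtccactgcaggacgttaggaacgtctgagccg
Socs3 promoter, chr11:117969317-117969616, minus strand: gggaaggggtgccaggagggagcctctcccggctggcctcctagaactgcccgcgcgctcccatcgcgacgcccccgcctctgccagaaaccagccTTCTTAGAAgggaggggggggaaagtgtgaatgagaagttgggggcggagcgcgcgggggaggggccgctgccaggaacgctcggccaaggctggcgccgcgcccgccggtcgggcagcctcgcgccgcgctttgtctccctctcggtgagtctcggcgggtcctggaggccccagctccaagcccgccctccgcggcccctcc
Asns promoter, chr6:7693160-7693459, minus strand: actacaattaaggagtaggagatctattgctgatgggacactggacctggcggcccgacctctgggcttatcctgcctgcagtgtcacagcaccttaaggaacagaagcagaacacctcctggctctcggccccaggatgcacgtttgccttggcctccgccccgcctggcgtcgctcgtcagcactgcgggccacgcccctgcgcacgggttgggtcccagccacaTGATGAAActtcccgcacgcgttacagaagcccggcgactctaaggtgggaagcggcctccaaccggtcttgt

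The STAT6-type motif was found in 6.95% of all 32851 windows at hand and in 6.36% of the 7510 measured genes that had a window. The first share counts windows, and shares of genes count a match in any window of the gene. This motif was in 12.9% of the 140 induced genes that had a window, 4.44% of the 90 called higher and 3.23% of the 62 called lower. Induced genes with the motif had a median response of 1.59 in WT and 1.48 without Trim24, and those without it 1.42 and 1.51. Their median differences were 0.02 for the 18 with it and 0.00 for the 122 without it. The GAS motif was in 8.23% of the genes measured, 4.44% of those called higher and 17.7% of those called lower, which are 11 genes, among them Ctsc, Tlr1, Il12rb2, Mag and Zfp111. The AP-1-type motif was in 5.89% of the genes measured, 12.9% of the induced and 16.9% of the repressed genes, but in 6.67% and 1.61% of those called higher and lower. The shares for genes measured, called higher and called lower were 3.79%, 2.22% and 1.61% for the interferon-type motif and 29.9%, 27.8% and 27.4% for the NF-κB-type. They were 1.34%, 2.22% and 1.61% for the sterol-type and 2.7%, 5.56% and 0% for the ATF4-type. A match is a run of letters in a window, not a bound site, and the called groups are small.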

How the data were processed

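RNA was measured in 4 libraries, 1 for each genotype and treatment, and samples were grouped by their labels. Per the study's methods and the submitters' processing notes, the authors aligned the reads with Bowtie to GRCm38 (mm10) and counted them per gene with RSEM, and versions and strand handling are not given in the sources used here. The deposited files list expected counts, FPKM values and a length in bases for genes with reads, and a gene missing from a file was set to 0. Near-identical copies can share reads in such counts.

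From the expected counts, log2(count + 0.5) scaled by the library total was taken, and a lowess curve over log2 length (fraction 0.3) was subtracted from each response. The deposited FPKM values served as an alternative. The counting error was the square root of the summed reciprocals of count + 0.5, converted from natural logarithms to the log2 scale. The method was tested on simulated data. Members and gene lists were chosen with earlier results of these data known. Named are Trim24, Arg1, Mrc1, Retnla, Chil3, Ccl17, Ccl24, Irf4, Tgm2, Stat6, Crebbp and Il4ra, the 10 highest and 10 lowest differences with an interval clear of 0 and a mean of at least 10 CPM, and the 8 largest gains and reductions among responsive genes. From each list up to 4 members with the largest differences, and members whose role a sentence turns on, were chosen after their values were seen. Of the gene symbols, 16365 matched the reference and 38 did not. Python 3.11.15 with numpy 2.4.6, pandas 2.3.3 and statsmodels 0.14.6, and R 4.3.3 with edgeR 4.0.16 for TMM scaling factors only, were used. Alternatives changed the scaling, read limit, threshold, pseudocount, smoothing, unit and counting model.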

Additional observations from a re-analysis of the deposited data

How the results depend on the processing

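Among the genes named by a fixed rule, no difference past 1.5-fold changed sign under the alternatives in which the gene was measured. The other called genes were not followed in this way. Higher calls outnumbered lower ones under each alternative. The medians of 16 of 48 lists, each at most 0.092 in size, changed sign with the length trend left in under library totals, 14 under TMM and 13 under median-of-ratios scaling. List medians also changed sign for 7 lists at 20 reads, 9 with no limit (at most 0.096 in size) and 4 with the GC trend removed. So did 2 with 3 robust smoothing iterations, 1 with log2(FPKM + 0.1) and 1 of 47 at 100 reads. The induced median, 0.015, was -0.006 at 100 reads, -0.011 with no limit and -0.015 in the stricter class, and the repressed median, 0.017, was -0.007 with the GC trend removed. No paired analysis was possible because each group held 1 library, and for the same reason no replicate could be left out. The main counts were 115 genes higher and 79 lower, or 107 and 69 with the interval clear of 0. With the length trend left in, higher calls were 287 with library totals, 233 with TMM and 222 with median-of-ratios scaling (273, 224 and 214 clear of 0), and 156 of the 194 main calls were shared with the 370 of the first. With a limit of 20 reads the counts were 281 and 195 (176 and 115 clear), with 100 reads 48 and 31 (48 and 31), with no limit 2456 and 2182 (239 and 228), and at a 2-fold threshold 7 and 6 (7 and 6). Widening the intervals by an assumed variation of 0.1 in each library left 40 higher and 20 lower clear of 0, and one of 0.2 left 2 and 0, so most calls would lie within spread of that size between mice, which these data cannot show. For induced genes the median difference was 0.053 with the trend left in. Their number past 1.5-fold, 5 in the main analysis, was 8 with the trend left in under each scaling, 14 and 2 at limits of 20 and 100 reads, 583 of 1038 genes with no limit, and 2 at 2-fold. A stricter mean induction, above 1.5 on the log2 scale, kept 85 genes. Responsive genes were selected anew under each scaling. For repressed genes with the trend left in, the median difference was 0.21, 0.19 and 0.17 under library totals, TMM and median-of-ratios (138, 134 and 138 genes). It was 0.087 over the 25 genes of the stricter class. Their number past 1.5-fold, 4 in the main analysis, was 14, 10 and 10 under those scalings, 8 and 2 at 20 and 100 reads, 715 of 1101 with no limit, 1 in the stricter class and 1 at 2-fold. The M2 median was -0.25 with no limit. Smoothing, a pseudocount of 5, log2(FPKM + 0.1), and a GC trend removed after length, the last chosen after seeing the data, moved none of these counts by over 1.5 times. The median counting error of the difference was 0.144.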
